A study of Rattus norvegicus with 61 samples.

Results

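Livers of rats given 4,4'-methylene dianiline (MDA) were compared with livers of rats given the vehicle (Ctrl). These are 10 of the 61 RNA sequencing samples of the series, 5 MDA and 5 Ctrl livers, chosen by their labels alone. All were livers of wild-type male Sprague-Dawley rats, which were 6 weeks old when purchased. MDA was given once by gavage at 300 mg/kg, Ctrl rats received 0.5% methylcellulose at 10 µl/g, and both groups had fasted overnight before dosing. Livers were perfused and a piece of the largest lobe was taken 24 h after dosing. Each library is labelled as a separate sample of its group. A further 36 samples, 6 from each of 6 sorted immune types (neutrophils, monocytes, NK cells, CD8 and CD4 T cells, B cells), served to describe transcripts by immune expression. The 5 livers of rats given acetaminophen (APAP) at 3 g/kg shared the fit and the vehicle controls.

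MDA is an aromatic amine known to injure bile ducts and the surrounding liver. Most RNA of a liver comes from hepatocytes, which devote much of it to a small set of very abundant messages for secreted plasma proteins and for metabolic enzymes. When the level of such messages falls, every other transcript takes a larger share of the library even if its own amount has not moved. For this reason values were scaled by TMM, a method that trims the transcripts with the most extreme ratios and levels before the libraries are set against each other. Levels are given as counts per 1000000 (CPM). In bulk tissue, fewer cells of a type and less RNA per cell cannot be told apart.

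The table gives 31196 transcripts by Ensembl identifier, and 0 of them matched the gene names used here, so transcripts are described without gene names and the liver and immune marker genes could not be looked up. Of these, 13485 with a mean of at least 1 CPM were tested. Of the 17711 that were not tested, 8440 had some signal in at least 1 of the 10 livers, and tested transcripts held at least 99.7% of the total in every liver. Totals ran from 10484912 to 12547746 in Ctrl and from 10847317 to 14146402 in MDA livers. A pair of livers stood apart from their own groups, Ctrl replicate 1 and MDA replicate 4, and the results are therefore also given without them, an alternative chosen after seeing the data.

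MDA livers spread their RNA over more transcripts than Ctrl livers did. The 100 most abundant transcripts of each liver held 62.4%, 58.3%, 61.5%, 59.2% and 56.3% of the total in the Ctrl livers, and 52.1%, 47.4%, 47.7%, 52.9% and 51.5% in the MDA livers. All 5 MDA livers lay below all 5 Ctrl livers. The means were 59.6% ± 2.48 (SD, n = 5) and 50.3% ± 2.58 (SD, n = 5), a difference of -9.27 percentage points (two-sided exact permutation test, p = 0.00794, and 0.00794 after Benjamini-Hochberg adjustment over 4 measures). This is the smallest p that 252 splits of 5 against 5 allow. Without Ctrl replicate 1 and MDA replicate 4 the difference was -9.19 points. The number of transcripts that together held 50% of the total was 34, 49, 38, 45 and 58 in Ctrl livers and 84, 125, 123, 79 and 89 in MDA livers, again without overlap (exact permutation p = 0.00794). The shares of the 10 and of the 1000 most abundant transcripts were also lower in all 5 MDA livers, by -5.30 and -5.76 points (exact permutation p = 0.00794 for each).

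**Figure D1:**
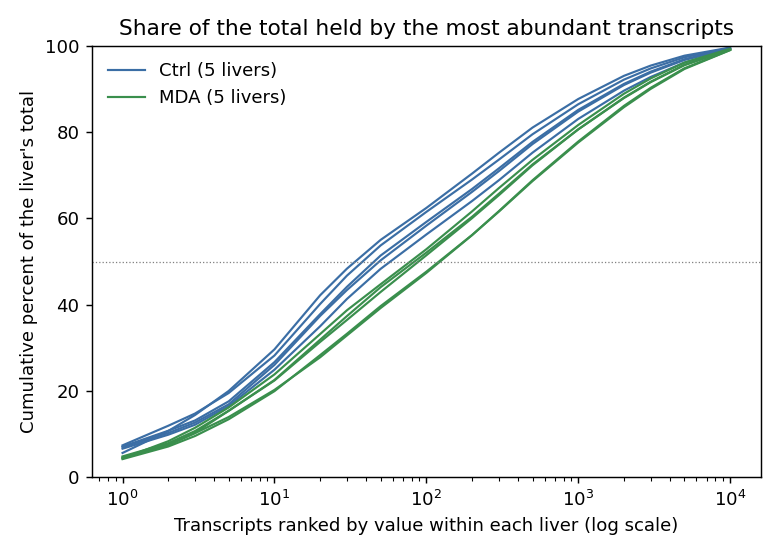
Cumulative percent of each liver's total (vertical axis) against the rank of its transcripts on a log scale (horizontal axis), 1 line per liver, blue for Ctrl and green for MDA, with a dotted line at 50%. The Ctrl lines reach 50% within 34 to 58 transcripts and the MDA lines within 79 to 125.

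After TMM, 2963 transcripts differed between MDA and Ctrl livers, 22.0% of those tested (edgeR quasi-likelihood test, Benjamini-Hochberg adjusted p under 0.05). Of these, 1433 were higher (10.6%) and 1530 lower (11.3%) after MDA. At least 2-fold changes numbered 646 upwards (4.79%) and 652 downwards (4.84%), and at least 4-fold changes 222 and 208. The split depended on the scaling. Higher transcripts made up 48.4% of the calls with TMM, 60.3% when totals left out the 1000 most abundant transcripts, 79.0% when they left out the 100 most abundant, and 91.5% with plain totals. Against these scalings the median log2 fold change of all tested transcripts was 0.02, 0.12, 0.31 and 0.56, so a direction given below is relative to the TMM scale. Without Ctrl replicate 1 and MDA replicate 4, 1307 were higher and 1421 lower.

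The groups did not overlap in 2488 transcripts (18.5%). All 5 MDA livers lay above all 5 Ctrl livers in 1242 of them (9.21%) and below in 1246 (9.24%). Among the called transcripts, 2213 (74.7%) were apart in this way.

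The size of the changes is shown by 2 transcripts that fell and 2 that rose, those with the largest differences in mean level among called transcripts of at least 2-fold change whose groups did not overlap. The most abundant transcript of Ctrl liver, ENSRNOT00000003921, stood at 93792, 87224, 108623, 91369.5 and 72400.1 CPM in Ctrl livers and at 42537, 38637, 34549.6, 44451 and 46189 CPM in MDA livers. Every MDA liver lay below every Ctrl liver, and the transcript fell 2.20-fold (log2 fold change -1.14, SE 0.15, edgeR adjusted p = 6.57e-05). The sixth in Ctrl liver, ENSRNOT00000022113, stood at 41374, 25924, 32136, 24813 and 18655 CPM in Ctrl and at 8058, 7009, 5944, 9661 and 8072 CPM in MDA livers. It fell 3.69-fold (log2 fold change -1.88, SE 0.20, edgeR adjusted p = 1.17e-05), and the highest MDA liver was below the lowest Ctrl liver.

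ENSRNOT00000004780 went the other way. It stood at 309, 307, 469, 245 and 320.0 CPM in Ctrl livers and at 3114, 3277, 3037, 3760.2 and 3359.9 CPM in MDA livers, a 10.0-fold rise (log2 fold change 3.33, SE 0.31, edgeR adjusted p = 3.15e-06). ENSRNOT00000054724 stood at 1689, 1360.4, 1111, 1243 and 959.6 CPM in Ctrl livers and at 4743, 4405, 4138, 4267 and 3162 CPM in MDA livers, a 3.26-fold rise (log2 fold change 1.70, SE 0.27, edgeR adjusted p = 0.000305). All 4 were nearly absent from the sorted immune types, where the highest mean of any of them was 0.117 CPM. After APAP the first of the risers averaged 1407 ± 712 CPM (SD, n = 5) and the second 454 ± 196 CPM (SD, n = 5), and MDA livers were above APAP livers in both (log2 difference 1.23 and 3.19, edgeR adjusted p = 0.00435 and 2.00e-06). ENSRNOT00000003921 and ENSRNOT00000022113, which fell after MDA, averaged 29318 ± 4553 and 5501 ± 783 CPM after APAP (SD, n = 5). MDA livers had the higher fitted level in both (log2 difference 0.49 in each, edgeR adjusted p = 0.0192 and 0.0679), and the second is not below 0.05.

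The direction of change followed abundance. Transcripts were placed in classes by their mean CPM over the 10 livers, computed with plain totals. The classes are described without a test, since the same livers gave the classes and the changes. Below 10 CPM, 719 of 7866 transcripts were higher (9.14%) and 477 lower (6.06%), and the median log2 fold change was 0.08. Between 10 and 100 CPM, 633 of 4547 were higher (13.9%) and 668 lower (14.7%), and the median was -0.01. Between 100 and 1000 CPM, 71 of 958 were higher (7.41%) and 329 lower (34.3%), with a median of -0.29. At 1000 CPM and above, 10 of 114 were higher (8.77%) and 56 lower (49.1%), with a median of -0.68. When classes were set by the Ctrl livers alone, 67 of 111 transcripts of the top class were lower and 2 higher, and their median was -0.82. Without Ctrl replicate 1 and MDA replicate 4 the top class had 54 lower, 9 higher and a median of -0.63.

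**Figure D2:**
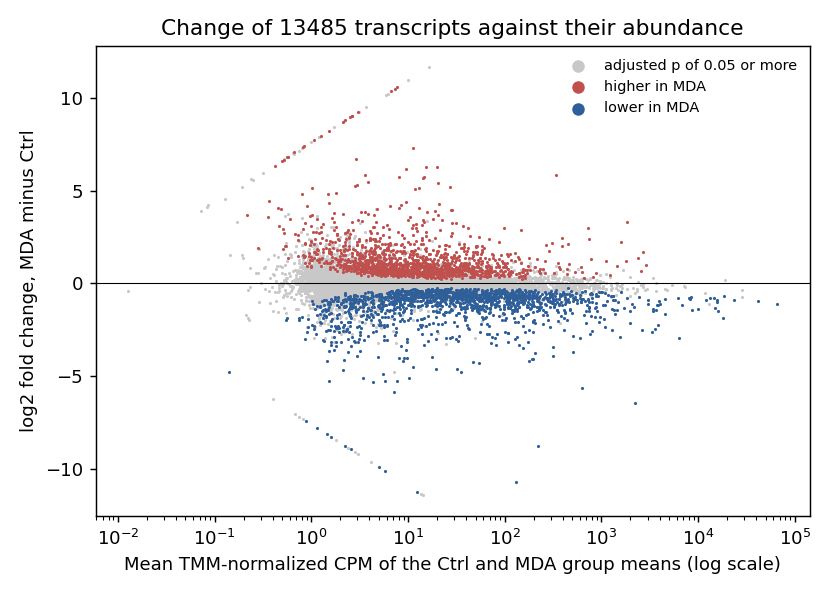
Log2 fold change of MDA over Ctrl (vertical axis) for each tested transcript against its mean TMM-scaled CPM on a log scale (horizontal axis), red where higher, blue where lower and grey where the adjusted p was 0.05 or more. Of the 114 transcripts classed at 1000 CPM and above by plain totals, 56 are blue and 10 red. The axis is TMM-scaled, so the class bound is not a fixed place on it. Points on the outer diagonals are at or near 0 in all livers of 1 group, and their fitted values depend on the prior count.

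The Ctrl livers themselves varied along the same axis. In the top class each Ctrl liver was set against the mean of the other 4 Ctrl livers, and each MDA liver against that of all 5. The median log2 difference was 0.48, -0.14, 0.20, -0.11 and -0.39 in Ctrl replicates 1 to 5. In the MDA livers it was -0.47, -0.71, -0.84, -0.38 and -0.50, and the MDA livers other than replicate 4 lay below all controls. A Ctrl value is larger in size against the other 4 livers than against all 5, by the same fixed factor in every transcript. With all livers set against the mean of all 5 Ctrl livers, MDA replicate 4 comes below Ctrl replicate 5. On that common reference all 5 MDA livers lie below all 5 Ctrl livers.

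Calls of lower level were most frequent among transcripts that the sorted immune types hardly expressed. The immune classes were set by the highest of the 6 mean levels (CPM with plain totals) in the sorted samples, which took no part in the liver fit. Of 1762 transcripts under 1 CPM in every sorted type, 476 were lower (27.0%) and 233 higher (13.2%), and the median on the log2 scale was -0.25. The 3 other classes had 8.47% to 11.9% lower and 9.15% to 13.1% higher, with medians from 0.01 to 0.05. Without the pair of livers that stood apart, the median of the class under 1 CPM was -0.26.

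Liver level and immune expression were then combined. Among transcripts at 1000 CPM and above in liver and under 1 CPM in sorted cells, 35 of 54 were lower (64.8%) and 4 higher, with a median of -1.06. At the same liver level but at least 100 CPM in a sorted type, 18 of 47 were lower (38.3%) and 2 higher, with a median of -0.32. Between 100 and 1000 CPM in liver, 113 of 220 were lower (51.4%) in the class under 1 CPM in sorted cells and 85 of 446 (19.1%) in the class at 100 CPM and above, with medians of -0.67 and -0.11. The higher calls in these classes numbered 11 and 35. At this liver level the classes between them had shares of lower calls nearer to the first. At 1 to 10 CPM in a sorted type 29 of 76 were lower (38.2%) and 5 higher, with a median of -0.48. At 10 to 100 CPM in a sorted type 102 of 216 were lower (47.2%) and 20 higher, with a median of -0.45. Between 10 and 100 CPM in liver the class under 1 CPM had 145 of 450 lower (32.2%) and 71 higher (15.8%), and the class at 100 CPM and above had 75 of 807 lower (9.29%) and 149 higher (18.5%). Under 10 CPM in liver the class under 1 CPM had 183 of 1038 lower (17.6%) and 147 higher (14.2%), with a median of -0.03. The class at 100 CPM and above had 27 of 421 lower (6.41%) and 39 higher (9.26%), with a median of 0.03. The classes between were not graded in the same way at the lower levels. Between 10 and 100 CPM in liver they had 26.0% and 11.7% lower, and 17.3% and 11.8% higher. Under 10 CPM in liver they had 4.80% and 3.70% lower, and 7.87% and 8.65% higher.

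**Figure D3:**
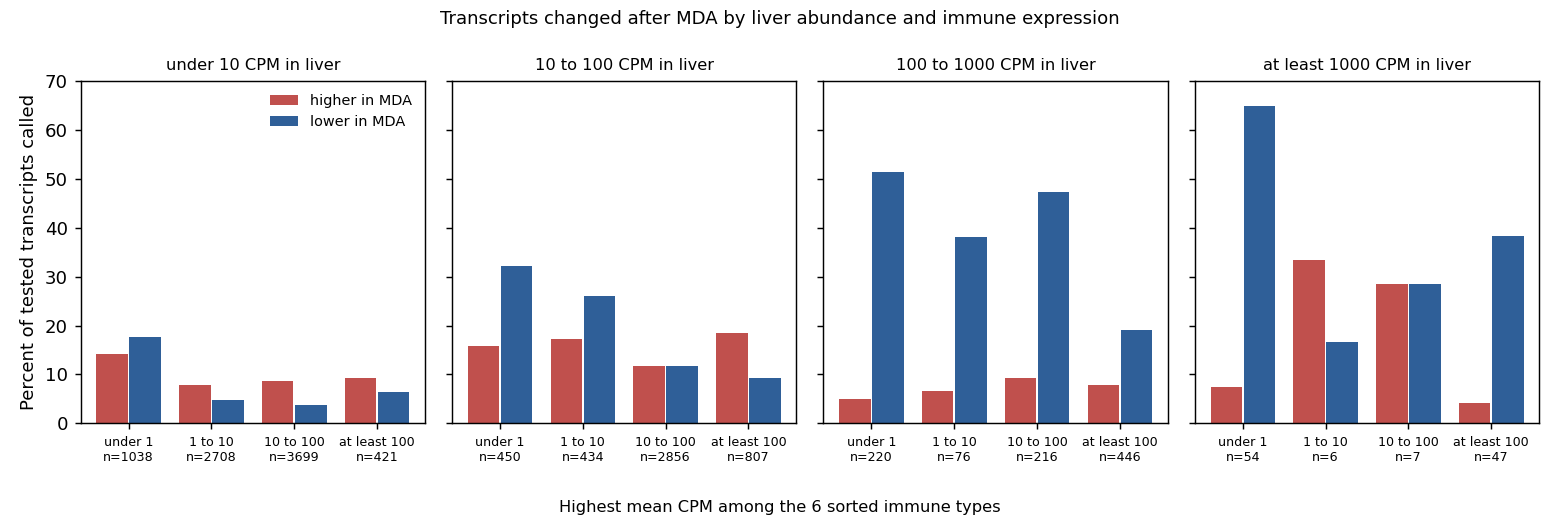
Percent of tested transcripts higher (red) or lower (blue) after MDA (vertical axis) by the highest mean CPM in a sorted immune type (horizontal axis), with 1 panel per liver abundance class and n below each pair of bars. The tallest bar, 64.8% lower, belongs to transcripts at 1000 CPM and above in liver and under 1 CPM in sorted types.

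The same contrast was seen liver by liver. The classes were joined above 100 CPM in liver for this purpose after their values had been seen, and no test was made. Each Ctrl liver was again set against the mean of the other Ctrl livers, and each MDA liver against that of all 5. For the 274 transcripts under 1 CPM in sorted cells, the median log2 difference was 0.19, -0.06, 0.14, -0.02 and -0.28 in the Ctrl livers and -0.68, -0.81, -0.92, -0.72 and -0.59 in the MDA livers. All 5 MDA livers lay below all Ctrl livers. For the 493 transcripts at 100 CPM and above in a sorted type, it was 0.41, -0.13, 0.13, -0.11 and -0.28 in Ctrl livers and -0.08, -0.18, -0.23, 0.01 and -0.13 in MDA livers. No MDA value lay outside the range of these Ctrl values. That range is wider, by the same fixed factor in every transcript, than it would be against the mean of all 5 Ctrl livers. On that common reference the MDA liver at -0.23 lies just below the lowest Ctrl liver, and the other MDA livers stay inside the range. In the first group 135 of 274 single transcripts (49.3%) were below all Ctrl livers in every MDA liver and 13 (4.74%) above. In the second, 72 of 493 (14.6%) were below and 35 (7.10%) above. Over all tested transcripts these shares were 9.24% and 9.21%.

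**Figure D4:**
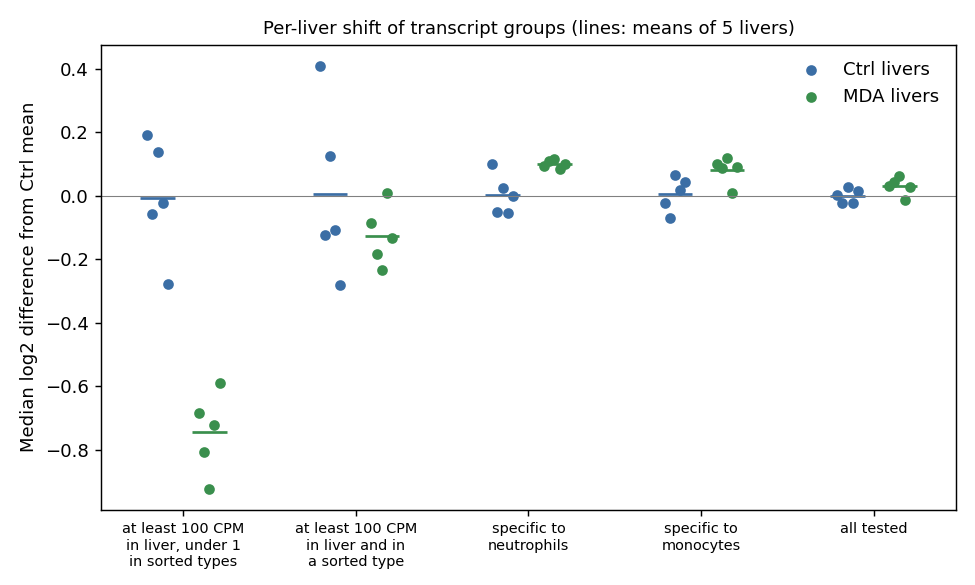
Median log2 difference from a Ctrl mean (vertical axis) in each Ctrl (blue) and MDA (green) liver for 5 groups of transcripts (horizontal axis), with lines at the means of 5 livers. MDA livers are set against the mean of all Ctrl livers. Each Ctrl liver is set against the mean of the other Ctrl livers, which widens the Ctrl spread. Abundant transcripts under 1 CPM in sorted types lie between -0.92 and -0.59 in MDA livers, below all controls, while abundant transcripts shared with a sorted type overlap with the controls.

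At the very top both kinds of transcript were lower. Of the 30, 20 were lower (edgeR, adjusted p under 0.05), the other 10 were not called, and 29 had a fitted value below 0. The 13 of them under 1 CPM in every sorted type held 17.1% to 20.7% of the total in Ctrl livers and 11.6% to 13.7% in MDA livers, 9 were lower, and their median log2 fold change was -1.17. The 11 at 1000 CPM and above in a sorted type also had 9 lower, with log2 fold changes from -0.97 to -0.51, and none of these reached 2-fold. Their share of the total was 13.1% to 23.1% in Ctrl and 12.2% to 18.1% in MDA livers, which overlap.

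A ratio of the 2 levels gave a like result. Transcripts more than 10-fold higher in liver than in any sorted type, after adding 1 CPM to both, were lower in 375 of 913 cases (41.1%) and higher in 100, with a median of -0.49. Those more than 10-fold higher in a sorted type were lower in 81 of 1054 (7.69%) and higher in 131 (12.4%), with a median of 0.09. The medians of the liver-dominant transcripts were -0.42, -0.51, -0.54, -0.43 and -0.40 in MDA livers, all below the lowest Ctrl liver at -0.20.

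Transcripts specific to 1 immune type were described next. Specific means a higher level in 1 type than in every other one (edgeR, adjusted p under 0.05). Of 14173 transcripts tested in the sorted samples, 15.4% were specific to neutrophils and 7.25% to monocytes. The lymphoid types had fewer, 1.94% (NK cells), 1.64% (B cells), 0.310% (T cells with CD4) and 0.134% (T cells with CD8). Neutrophils are granulocytes that enter injured tissue early, and monocytes give rise to tissue macrophages. Of 1899 neutrophil-specific transcripts tested in liver, 283 were higher (14.9%) and 173 lower (9.11%), and their median log2 fold change was 0.09. Of 882 monocyte-specific transcripts, 141 were higher (16.0%) and 97 lower, with a median of 0.08. These shares stand beside 10.6% and 11.3% over all tested transcripts and a median of 0.02. In the lymphoid types, 21 of 158 NK transcripts were higher and 18 lower, 15 of 144 B cell transcripts were higher and 18 lower, 3 of 28 CD4 transcripts were higher and 3 lower, and 1 of 9 CD8 transcripts was higher. Signature transcripts, up to 200 per type that exceeded the next type by more than 1.5-fold with 1 CPM added, gave medians of 0.15 for neutrophils (91 transcripts), 0.01 for monocytes (128 transcripts) and, among lymphocytes, 0.24 for CD8 (20 transcripts), 0.03 for CD4 (37 transcripts), -0.09 for B (62 transcripts) and -0.14 for NK (66 transcripts).

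The median change of the neutrophil-specific transcripts fell with abundance in liver, as it did for all tested transcripts, but the middle classes had fewer lower calls. Under 10 CPM in liver 109 of 887 were higher (12.3%) and 54 lower (6.09%), with a median of 0.15. All tested transcripts at that level had 9.14% higher, 6.06% lower and a median of 0.08. Between 10 and 100 CPM 156 of 862 were higher (18.1%) and 86 lower (9.98%), with a median of 0.07. All tested transcripts there had 13.9% higher, 14.7% lower and a median of -0.01. Between 100 and 1000 CPM 17 of 139 were higher (12.2%) and 27 lower (19.4%), with a median of -0.11. All tested transcripts there had 7.41% higher, 34.3% lower and a median of -0.29. At 1000 CPM and above 1 of 11 was higher (9.09%) and 6 lower (54.5%), with a median of -0.71. All tested transcripts at that level had 8.77% higher, 49.1% lower and a median of -0.68. On the TMM scale the mean of the summed level was lower in MDA livers, against the positive median of these transcripts. The sum ran from 136853 to 195136 CPM in Ctrl and from 117772 to 153866 CPM in MDA livers on the TMM scale, which overlap, and from 117220 to 126964 CPM in Ctrl and from 143444 to 160995 CPM in MDA livers when divided by plain totals. With plain totals the median log2 fold change was 0.63, beside 0.56 over all tested transcripts, so sum and median were both higher there. The neutrophil-specific transcripts that were also more than 10-fold higher in a sorted type than in liver, a group chosen after its values were seen, comprised 58 higher (15.0%) and 36 lower (9.33%) of 386. These shares stand beside 12.4% and 7.69% of all transcripts more than 10-fold higher in a sorted type, and 10.6% and 11.3% of all tested. The sum of the 386 was 3954 to 4786 CPM in Ctrl, 4413 to 4848 CPM in MDA and 5172 to 6667 CPM in APAP livers on the TMM scale. MDA and Ctrl livers overlap in this sum on that scale. Divided by plain totals it was 2843 to 3904 CPM in Ctrl and 4476 to 5408 CPM in MDA livers, which do not overlap.

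The spread between treated animals was compared with that between controls. The distance of each liver from the mean of the other 4 of its group, the root mean square of log2(CPM + 1) differences, was 0.603, 0.502, 0.497, 0.482 and 0.487 in Ctrl and 0.397, 0.432, 0.409, 0.553 and 0.419 in MDA livers. In 4 of 5 MDA livers it was below every Ctrl liver, and the exception was MDA replicate 4. The means were 0.514 ± 0.0503 (SD, n = 5) and 0.442 ± 0.0636 (SD, n = 5), a difference of -0.0723 (two-sided exact permutation test, p = 0.0794), which does not pass the threshold of 0.05. Distances within a group share livers and are not independent. The difference was smaller on other scales, at -0.0368 with plain totals (exact permutation p = 0.413) and at -0.0448 over transcripts with a mean of 10 CPM or more (exact permutation p = 0.397), and larger at -0.134 with a pseudocount of 0.1 in place of 1 (exact permutation p = 0.0397). Leaving out MDA replicate 4 gave -0.0979 (exact permutation p = 0.0159) and leaving out Ctrl replicate 1 with it gave -0.0823 (exact permutation p = 0.0286). Both are the smallest p that the remaining livers allow, and they follow from removing the livers with the largest distances, so they lend the difference no support. Leaving out any other single liver gave exact permutation p from 0.0635 to 0.365. The SD of a transcript over 5 livers had a median of 0.291 in Ctrl, 0.234 in MDA and 0.280 in APAP livers, and it was higher in MDA than in Ctrl for 35.1% of transcripts.

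The first principal component held 42.6% of the variance and separated the groups, while the second held 15.8% and set Ctrl replicate 1 at 45.1 and MDA replicate 4 at 40.9, against -26.8 to 6.85 in the other livers. The deviations of these 2 livers from their group means correlated with r = 0.398 across transcripts, the highest of 25 pairs between the groups. Transcripts are not independent replicates, so no p is given.

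**Figure D5:**
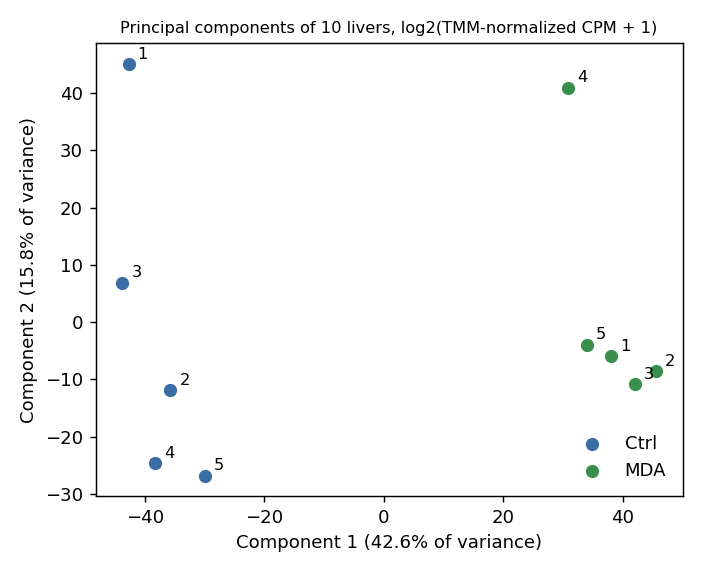
The 10 livers on the first (42.6% of variance, horizontal axis) and second (15.8%, vertical axis) principal components of log2(TMM-normalized CPM + 1), blue for Ctrl and green for MDA, numbered by replicate. Ctrl replicate 1 and MDA replicate 4 sit at 45.1 and 40.9 on the second component, above the other 8 livers.

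Single MDA livers were set against calls made without them. Of the transcripts called without MDA replicate 1, 2, 3 or 5 (2381 to 2569), 99.1% to 99.5% lay on the called side of the Ctrl mean in the liver left out, and 90.5% to 94.8% lay beyond all 5 Ctrl livers. Over all tested transcripts, called or not, 79.8% to 81.1% lay in these livers on the side of the change fitted without them. For MDA replicate 4 the values were 93.8% and 78.1% of 2934 calls, beside 67.8% on the same side over all tested transcripts. The Ctrl livers are shared between the calls and this check. Of the 2963 calls, 2081 (70.2%) were made in the same direction in all 10 fits that left out 1 liver.

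APAP livers were used to place the MDA values. Between the treatments 4482 transcripts differed (33.2%), with 2296 higher after MDA (17.0%) and 2186 lower (16.2%). Transcripts under 1 CPM in every sorted type were higher after MDA than after APAP in 583 of 1762 cases and lower in 193, with a median log2 difference of 0.40. At 1000 CPM and above in liver, 37 of 114 were higher after MDA than after APAP and 12 lower, with a median of 0.27. The compounds were given at different doses.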

How the data were processed

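Per the labels and the study's methods, total RNA of perfused livers and sorted cells was sequenced paired-end. The authors used Salmon 1.6.0 on trimmed reads (Ensembl cDNA of Rnor_6.0, GC and sequence bias corrected) followed by tximport in R 4.1.3. The deposited values, described in the methods as TPM, have totals on the scale of a library and were used as estimated counts, rounded to whole numbers for tests. The smallest values above 0 of scarce transcripts do not gather at 1, so a value of 1 need not be 1 read, and length may have been divided out. edgeR 4.0.16 (TMM, quasi-likelihood) was fitted to all 15 livers for transcripts averaging 1 CPM or more, and separately to the 36 sorted samples. DESeq2 1.42.0 and limma 3.58.1 were alternatives, with other scalings, filters, a replicate block and each liver left out. Procedures were tested on simulated data. P-values measure only the spread between these samples, which may be technical. Depth was 10484912 to 14146402 per Ctrl or MDA liver, and no interval is given because counts are estimated. At most 2 transcripts that rose and 2 that fell are named, those with the largest difference of mean CPM among calls of at least 2-fold with groups that do not overlap. Gene lists and markers could not be applied without gene names. The members and lists were chosen with earlier results of these data known.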

Additional observations from a re-analysis of the deposited data

Results flagged for a closer look

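In 88 sets of 5 livers checked, 4 had a liver whose gap to the nearest other exceeded 0.71 of the set's range, and chance alone gives about 1 in 20. Ctrl replicate 1 lay farthest from its group, at a distance of 0.603, and MDA replicate 4 from its own, at 0.553. Ctrl replicate 1 was also the lowest Ctrl liver, at 3.19 CPM, in the sum of 2 transcripts specific to CD4 T cells and more than 10-fold higher in a sorted type than in liver. It was the highest, at 1512 CPM, in the corresponding sum of 168 monocyte transcripts. Both sums were added after values of these data had been seen.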

How the results depend on the processing

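Plain totals gave 6496 changed transcripts (5942 higher, 554 lower), and totals without the 100 most abundant gave 3301 higher and 878 lower. A minimum of 10 CPM gave 971 lower. DESeq2 gave 1501 higher and 1809 lower, with 19 adjusted p left as NA. Leaving out 1 liver gave 2381 to 2934 changed, 1135 to 1425 higher and 1151 to 1509 lower. Class medians below are log2 fold changes minus that of all tested transcripts. For transcripts under 1 CPM in sorted types the main value of -0.27 became -0.21 with limma, -0.22 without a filter and -0.42 at a minimum of 10 CPM. The classes near 0 changed sign. Between 10 and 100 CPM in liver the median was 0.0089 without a filter and 0.0271 at a minimum of 10 CPM. Between 1 and 10 CPM in sorted types it was -0.147 at a minimum of 10 CPM, and -0.0124 to 0.0198 with 1 liver left out. At 100 CPM and above in sorted types it was 0.0303 without a filter, 0.0502 at a minimum of 10 CPM, 0.00583 without Ctrl replicate 1 and MDA replicate 4, and -0.0444 to 0.031 with 1 liver left out. For NK cells it was 0.0427, 0.00498 and 0.0235 under the same 3 settings and -0.019 to 0.0366 with 1 liver left out. For B cells it was 0.00308 without a filter and -0.104 without Ctrl replicate 1, against -0.0421. With signature transcripts it was -0.0111 for monocytes (main 0.0586), -0.113 for B cells, -0.167 for NK cells (main -0.00303), 0.214 for CD8 T cells (main 0.0245) and 0.129 for neutrophils (main 0.0676). Leaving out 1 liver gave -0.0168 to 0.063 for CD4 T cells and -0.0449 to 0.217 for CD8 T cells. The distance between livers (main difference -0.0723) differed by -0.0368 with plain totals, by -0.0448 at a minimum of 10 CPM, by -0.134 with a pseudocount of 0.1, by -0.0823 without both livers that stood apart, and by -0.101 to -0.0416 with 1 liver left out. The cause of these shifts was not tested.

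With a replicate block 2618 transcripts changed (1282 higher, 1336 lower). Same-numbered livers correlated in their deviations at -0.289 to 0.0601, and 0 of 5 correlated best with their own number. This gave no sign of a pairing by number, and 5 correlations are too few to settle it.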

Other observations

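Listed at 0 in all 5 Ctrl livers and at 1 CPM or more in all 5 MDA livers were 10 transcripts. Of these, 7 were under 1 CPM in every sorted type, 3 were also at 1 CPM or more in all 5 APAP livers, and the highest level in any MDA liver was 26.4 CPM. The reverse held for 1 transcript, which reached 44.2 CPM in a Ctrl liver and was listed at 0 in all APAP livers. An exact 0 among estimated counts can be a failed estimate, so no fold is given.

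Ctrl replicate 1 and MDA replicate 4 were both at least 1 log2 unit above their group means in 38 transcripts and both at least 1 below in 43. Of the 38, 22 reached 10 CPM in a sorted type (57.9%), against 63.0% of all tested transcripts, and 5 (13.2%) were called between MDA and Ctrl livers, against 22.0% of all tested. Of the 43, 23 reached 10 CPM in a sorted type (53.5%) and 0 were called by edgeR, with 3 at an unadjusted p under 0.05, 0 called by DESeq2 and 1 by limma. These transcripts were chosen for their spread within the groups, which enters the test.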
